A study of Homo sapiens with 24 samples.

Results

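The 10 genes described here encode the proteins of the desmosome, and their mRNA was measured in 24 two-colour Agilent arrays of 7 established human cancer cell lines. They are the desmosomal cadherins DSC2, DSC3, DSG1, DSG2 and DSG3, the plaque proteins JUP, PKP1, PKP2 and PKP3, and the linker DSP. They were chosen by name, as every non-control spot whose gene name was one of the 10, which gave 13 probes among 42405 on the first array design and the same 13 among 50599 on the second. The probe sets named 33407 genes or transcripts on the first design and 36337 on the second.

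Desmosomes are adhesive junctions that tie the intermediate filaments of neighbouring epithelial cells together. Desmogleins (DSG) and desmocollins (DSC) cross the membrane and bind their partners on the next cell, plakoglobin (JUP) and the plakophilins (PKP) hold the cadherin tails, and desmoplakin (DSP) connects that plaque to keratin filaments. DSG2, DSC2 and PKP2 are the widespread forms, found in simple epithelia, whereas DSG1, DSG3, DSC3 and PKP1 are typical of stratified squamous epithelium.

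PC3, DU145 and LNCap are prostate cancer lines, A498 and 786O renal cell carcinoma lines, and FaDu and SAS head and neck squamous cell carcinoma lines. On each array the treated RNA carried Cy5 and the control RNA of the same line carried Cy3. The treated cells had received genistein (PC3, DU145), wogonin (FaDu, SAS), the chemokine CXCL10 for 12 or 24 h (786O), an siRNA against CAV2 (A498, 786O), LAMB3 (FaDu, SAS) or GOLM1 (PC3, DU145), or a miRNA, which was miR-145 (PC3, DU145, LNCap), miR-143 (PC3, DU145), miR-375 (FaDu), miR-23b or miR-24 (PC3), miR-27b (PC3, 786O, A498) or miR-29a (SAS). The labels name the control as no treatment for genistein and CXCL10, DMSO for wogonin and control for the transfections, which used a lipid reagent. Each condition was hybridised once and no dye was swapped, so a dye effect of a probe cannot be told apart from a treatment. The 16 arrays of the first design lay on 2 slides and the 8 of the second on 1 slide.

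The treatments included 7 miRNAs, and the mature strands that usually carry these names are shown because their seeds, bases 2 to 8 in capitals, are what a miRNA pairs with its target through. The labels do not name the strand.
hsa-miR-145-5p: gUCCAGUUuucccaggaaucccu
hsa-miR-143-3p: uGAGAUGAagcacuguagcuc
hsa-miR-23b-3p: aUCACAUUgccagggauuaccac
hsa-miR-24-3p: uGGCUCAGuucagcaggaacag
hsa-miR-27b-3p: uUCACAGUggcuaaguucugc
hsa-miR-29a-3p: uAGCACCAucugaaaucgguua
hsa-miR-375-3p: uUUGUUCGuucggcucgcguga
The sequences are those of RefSeq (GRCh38.p14), and the 7 seeds were all different.

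The probes were 60 bases long and their positions are those of the array annotation on hg19. All 5 cadherin genes lie together on chromosome 18, with DSC3 at chr18:28571035-28571094 and chr18:28576935-28576994, DSC2 at chr18:28650796-28651609, DSG1 at chr18:28937335-28937394, DSG3 at chr18:29058356-29058415 and DSG2 at chr18:29126460-29126519. The DSC2 probe covers 814 bases of genome with 60 bases of sequence, so it spans a splice junction. DSP was read by probes at chr6:7586052-7586111 and chr6:7586582-7586641, JUP at chr17:39911150-39911209, PKP2 at chr12:32943741-32943800 and PKP3 at chr11:404848-404907. PKP1 had a probe at chr1:201297905-201297964 and another at chr1:201297916-201297975. These PKP1 probes share 49 bases, in capitals, so that where they differed the same stretch of mRNA gave unequal readings.
PKP1 probe A_33_P3393971: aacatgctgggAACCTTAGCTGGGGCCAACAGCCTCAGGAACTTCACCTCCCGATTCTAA
PKP1 probe A_23_P23296: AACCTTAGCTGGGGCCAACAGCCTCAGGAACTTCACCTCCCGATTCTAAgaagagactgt
For genes with more than 1 probe the brighter one is given unless a probe is named. It was the first PKP1 probe on the first design and the second PKP1 probe on the second design.

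The scanner software called 53.2% to 67.6% of spots well above background in control channels and 54.2% to 68.9% in treated channels, and none saturated. The targets of the siRNAs had log2 ratios of -3.80 and -3.20 for CAV2, -4.15 and -3.02 for GOLM1, and -2.50 and -0.89 for LAMB3, whose mean of -1.69 did not pass limma's test (adjusted p = 0.276). Of the line markers, 4 of 5 squamous markers were higher in FaDu and SAS than in PC3 and DU145, and 3 of 4 renal markers were higher in 786O than in prostate lines (limma, adjusted p under 0.05). KLK3, the gene of prostate-specific antigen, chosen after its values were seen, read 2.21 in the LNCap control and -6.31 to -5.24 in the PC3 controls of the first design, none of these well above background in PC3. Levels come from RNA of whole cultures, so fewer expressing cells and less RNA per cell cannot be told apart.

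A level below is the log2 processed signal of the control channel minus the 75th percentile of that array. It compares 1 probe between lines, never a probe with another, and the designs were scaled separately. Control cells of 1 line that came from different experiments served as its replicates. The labels do not say that the 3 PC3 arrays of miR-23b, miR-24 and miR-27b used 1 control RNA, but their control channels correlated at 0.995 to 0.996 with each other and at 0.962 to 0.972 with the other PC3 controls of that design, and they were averaged into 1 control. The p-values therefore measure the spread between such controls, whose cultures the labels do not describe.

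DSG3, the desmoglein targeted in pemphigus vulgaris, was read clearly in the squamous lines. Its control levels ran from 0.56 to 1.61 over the 3 controls of FaDu and were -2.30, 0.05 and 0.37 in SAS. In the other 5 lines it ranged from -7.72 to -5.48 on the first design and was well above background in 1 control channel, that of PC3 with miR-145, and on the second design it was above background in none. DSG1, its relative of the upper epidermis, was not well above background on any of the 16 arrays of the first design, squamous lines included. On the second design it was above background in 3 control channels, both of DU145 and that of 786O with miR-27b. In the squamous lines DSG3 was thus read on every array and DSG1 on none.

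DSG2, the desmoglein of simple epithelia, was the only cadherin of the 5 that was well above background in both channels of all 24 arrays. On the first design it was highest in DU145 at 0.73 ± 0.02 (SD, n = 2 controls) and lowest in PC3 at -1.36 ± 0.29 (n = 3) and 786O at -1.31 (1 control). FaDu at -0.04 ± 0.23 (n = 3), A498 at -0.29 (1 control), SAS at -0.31 ± 0.11 (n = 3) and LNCap at -0.48 (1 control) lay between. LNCap, SAS and A498 were closer to each other than the SD of FaDu.

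DSC2, the widespread desmocollin, was highest in LNCap at 0.75 (1 control). DU145 followed at -1.29 ± 0.07 (n = 2), PC3 at -1.54 ± 1.10 (n = 3), FaDu at -1.86 ± 0.38 (n = 3) and SAS at -2.62 ± 0.17 (n = 3). DU145, PC3 and FaDu did not differ beyond the spread of PC3, whose controls read -2.80, -1.01 and -0.81. The renal lines stood below, with A498 at -5.32 and 786O at -6.95, neither well above background on the first design.

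DSC3, the desmocollin of basal squamous cells, depended on the probe. The brighter probe, at chr18:28576935-28576994, was highest in FaDu at -0.25 ± 0.76 (n = 3), then PC3 at -1.64 ± 0.67 (n = 3) and SAS at -3.38 ± 2.52 (n = 3). The other, at chr18:28571035-28571094, was highest in PC3 at -1.59, and FaDu stood 3.24 below its PC3 level with 1 of 3 controls above background. Relative to their own level in PC3, FaDu was at 1.39 on the first probe and -3.24 on the second, whereas SAS was at -1.74 and -1.99 and LNCap at -2.59 and -2.48. DU145 stood at -2.996 on the first probe and at -5.64 on the second, where neither control was above background. The annotation assigns the probes to different DSC3 transcripts, and the first is printed below because it carries the DSC3 values of this text. Their log2 ratios of treated over control were closer, with the same sign on 12 of the 13 arrays where both probes were measured and a median absolute difference of 0.15.
DSC3 probe A_33_P3266898: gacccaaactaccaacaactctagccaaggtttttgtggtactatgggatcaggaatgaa

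**Figure D1:**
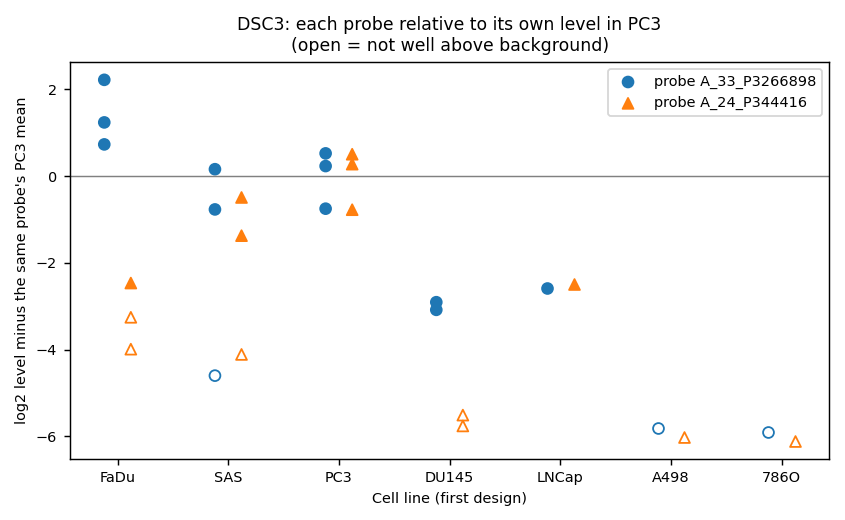
Control-channel level of the 2 DSC3 probes in each line of the first design, each on a log2 scale relative to that probe's own PC3 mean, with 1 point per control and open points for values not well above background. PC3 is at 0 on both by construction. SAS and LNCap gave similar values on both probes, whereas FaDu lay at 1.39 on one and -3.24 on the other and DU145 at -2.996 and -5.64.

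DSP, without which cadherin plaques do not reach the keratin filaments, separated 786O from every other line. Its level on the first design was 4.72 ± 0.11 in FaDu (n = 3), 3.30 ± 0.71 in SAS (n = 3), 3.08 in LNCap (1 control), 2.51 ± 0.13 in DU145 (n = 2), 1.93 ± 0.20 in PC3 (n = 3), 1.04 in A498 (1 control) and -5.62 in 786O (1 control). LNCap lay within the range of the SAS controls, 2.52 to 3.90. Of the DU145 controls, the one at 2.59 lay within that range and the one at 2.42 below it. On the second design 786O read -7.32, -6.16 and -5.17, none well above background, beside 1.86 in A498, which is also a renal line.

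JUP, which sits in adherens junctions as well as desmosomes, followed a similar order, from 3.99 ± 0.19 in FaDu and 3.40 ± 0.60 in SAS (n = 3 each) through 2.64 in LNCap (1 control), 1.77 ± 1.48 in DU145 (n = 2) and 0.52 ± 1.06 in PC3 (n = 3) to -0.24 in A498 and -4.42 in 786O (1 control each). Controls of 1 line were far apart, at 0.72 and 2.82 in DU145 and at -0.65, 0.78 and 1.42 in PC3. On the second design the CXCL10 controls of 786O read -2.42 and -0.86 and the miR-27b control -4.09.

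Among the plakophilins, PKP1, the squamous form, was highest in PC3. It read -0.04 ± 0.70 there (n = 3), against -2.98 ± 0.58 in SAS and -3.75 ± 0.58 in FaDu (n = 3 each) and -5.34 ± 0.87 in DU145 (n = 2). It was not well above background in LNCap or in either renal line on the first design. PKP2, the plakophilin of simple epithelia and heart, was highest in FaDu at 1.80 ± 0.18 and SAS at 0.72 ± 0.22 (n = 3 each) and lowest in 786O at -4.27 (1 control). PKP3 was above background on all 24 arrays. It ran among the non-renal lines from 3.57 ± 0.15 in PC3 (n = 3) to 5.01 ± 0.21 in SAS (n = 3), with 786O at 0.56 (1 control).

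**Figure D2:**
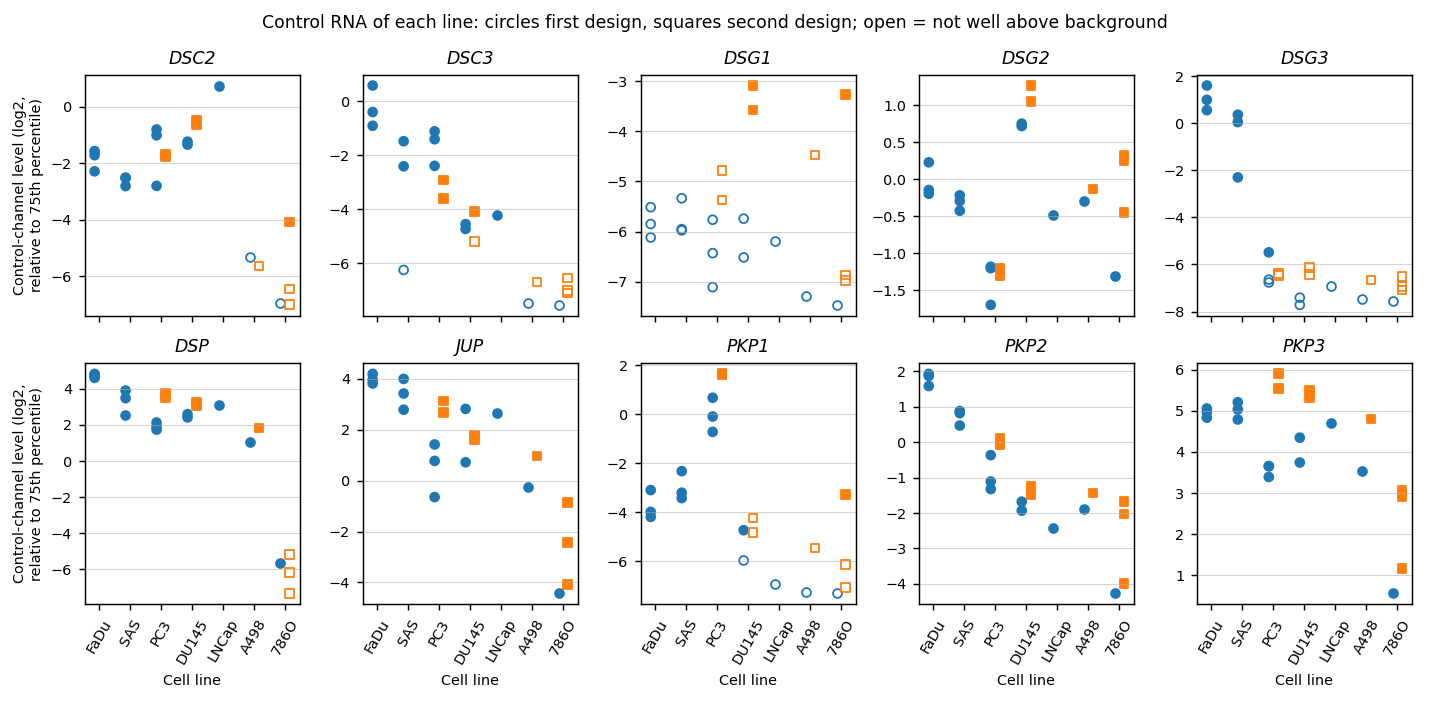
Control-channel level (log2 relative to the array's 75th percentile) of each desmosome gene by cell line, with 1 point per control RNA, circles for the first design, squares for the second and open symbols for values not well above background. DSG3 was at -2.30 or higher in FaDu and SAS and at -5.48 or lower elsewhere, and DSP in 786O was at -5.17 or lower.

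Between the squamous and the PC3 and DU145 controls, 5 of the 9 members tested were higher in the squamous lines and none lower (limma, adjusted p under 0.05), where 38.9% of all 21191 names tested were called in either direction. DSG3 differed by 7.15 ± 0.48 (SE, adjusted p = 2.45e-06), with means of 0.22 and -6.93. Only 1 of the 7 prostate channels held it above background, so the size of that difference rests on readings at background, and against DU145, with none above, the squamous lines were at least 109-fold higher. DSG3 entered the test only through the squamous lines, which favoured a higher reading there. PKP2 differed by 2.63 ± 0.20 (adjusted p = 6.36e-06), JUP by 2.55 ± 0.46 (adjusted p = 0.00161), DSP by 1.79 ± 0.24 (adjusted p = 0.000246) and PKP3 by 1.17 ± 0.17 (adjusted p = 0.000381). The median over the members was 1.33 and over all names 0.01. DSC2 at -0.82 ± 0.34 (adjusted p = 0.0813), DSC3 at 1.33 ± 0.75 (adjusted p = 0.186), PKP1 at -0.67 ± 0.36 (adjusted p = 0.164) and DSG2 at 0.14 ± 0.16 (adjusted p = 0.527) did not pass. PKP1 averages opposite differences, of -3.32 from PC3 and 1.98 from DU145. DSG1 was not tested because no line of the contrast held it above background.

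Genes that work beside the desmosome differed in the same contrast, where 38.9% of all names were called in either direction. Names measured on only 1 side, such as KRT5 and TP63, entered through that side, which favoured a call towards it. Of 6 keratins, 5 were higher in the squamous lines, among them KRT8 at 2.29. KRT5 and KRT14, the keratin pair of basal squamous cells, and KRT6A were not above background in any PC3 control of that design. KRT5 was at least 1653-fold higher than in the prostate lines together, and KRT14 and KRT6A at least 1732-fold and 75.4-fold higher than in PC3. Of 6 tested other desmosome and envelope genes 3 were higher, among them PPL (periplakin, a relative of DSP) at 3.33 and PERP at 2.10, and LMO7 was lower at -1.97. Of 9 tested epithelial transcription factors 6 were higher, the largest being GRHL2, OVOL1, EHF and TP63. Few prostate channels held these above background, 3 of 7 for GRHL2, 2 for EHF, 1 for OVOL1 and none for TP63, which was at least 13.02-fold higher in the squamous lines. Of 8 adherens junction genes 5 were higher and 1 lower. CTNNA1, the α-catenin that links E-cadherin to actin, differed by 4.77, and its PC3 controls were not well above background in 6 of 7 channels over both designs. Its DU145 controls read 3.40 and 3.03, inside the 2.72 to 3.71 of the squamous controls, so the difference is one from PC3. Of the 5 tested neighbours of the cadherin cluster on chromosome 18, CDH2 was called higher at 1.98, which averages a difference of -2.30 from PC3 with 6.26 from DU145, where 1 of 2 controls was above background. RNF125 was lower at -3.10, and B4GALT6, not above background in any squamous control, at least 1.94-fold lower.

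Between the squamous lines, 3 of 9 members tested were higher in FaDu than in SAS and none lower, where 27.9% of all names were called. They were DSP at 1.42 ± 0.31 (adjusted p = 0.007), PKP2 at 1.07 ± 0.26 (adjusted p = 0.0124) and DSC3 at 3.13 ± 0.99 (adjusted p = 0.038). The DSC3 call was lost with the slide as a block (adjusted p = 0.0813) or without any 1 FaDu control (adjusted p = 0.117 without the miR-375 control, 0.054 without the si-LAMB3 control and 0.0821 without the wogonin control). The SAS control of the miR-29a array stood apart from the other SAS controls. It read -6.24 for DSC3 against -2.41 and -1.49, and -2.30 for DSG3 against 0.05 and 0.37. KRT14 read 2.14 there against 4.73 and 5.75, KRT5 2.31 against 3.90 and 4.75, KRT6A -1.46 against -0.75 and -0.77, SFN 5.37 against 6.43 and 6.37, and TP63 was at -4.33 and not above background against -2.32 and -1.88. All 5 squamous markers were thus lowest on that array among the SAS controls, and their part in the desmosome values was not tested. Without it, 6 members in place of 5 were called between squamous and prostate lines and the same number, 3, between FaDu and SAS, with DSC3 at 1.70 in place of 3.13.

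PC3 and DU145 differed in the levels of PKP1 and DSG2, a number of calls near the share of all names. On the first design 1 of 8 members tested was higher in PC3 and 1 lower, where 25.1% of all names were called. PKP1 was higher by 5.30 ± 0.53 (adjusted p = 5.67e-05) and DSG2 lower at -2.10 ± 0.24 (adjusted p = 0.000136). The second design, with other controls, gave the same 2 calls among 9 members tested, where 19.8% of all names were called, with DSG2 at -2.41 ± 0.31 (adjusted p = 0.00448) and PKP1 at 6.16 ± 1.16 (adjusted p = 0.016). PKP1 was not well above background in DU145 there, which makes PC3 at least 63.9-fold higher. The PKP1 call of the second design was lost without any 1 of the 4 controls, at adjusted p = 0.0759 to 0.0957, with differences of 5.86 to 6.46. DSC3 was 2.996 ± 1.11 higher in PC3 on the first design (adjusted p = 0.0748) and 1.37 ± 0.45 on the second (adjusted p = 0.0837), neither of which passed.

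PC3 controls read differently on the designs, in genes chosen after their values were seen. E-cadherin (CDH1) read 4.13 and 3.58 in the 2 PC3 controls of the second design and -2.34 to -0.56 on the first, ZEB1 read -3.48 and -2.57 against 0.39 to 1.13, and vimentin (VIM) 2.39 and 2.99 against 6.04 to 6.77. DSP read 3.52 and 3.77 against 1.57 to 2.13, and JUP 2.69 and 3.13 against -0.65 to 1.42. DU145 DSP, for comparison, read 3.09 and 3.24 against 2.42 and 2.59. These levels were scaled within each design, and a design effect on a probe cannot be told apart from a difference between the cells.

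LNCap, represented by 1 control, had 1 of 8 members tested higher and 1 lower than PC3 and DU145, where 24.2% of all names were called. DSC2 was higher by 2.17 ± 0.61 (adjusted p = 0.0272). PKP1 was lower at -4.24 ± 0.64 (adjusted p = 0.000922), and it was not well above background in LNCap. Taken by line, PC3 was at least 58.03-fold higher than LNCap, and DU145, with 1 of 2 controls above background, at least 1.47-fold. LNCap was assumed to vary as the other lines did.

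Most members were lower in 786O. Against PC3 and DU145 on the second design, 7 of the 9 members tested were lower and none higher, where 32.1% of all 20855 names were called in either direction. DSP, DSC2, DSC3, PKP1 and DSG1 entered the test only through a prostate line. For these the filter favoured a lower reading in 786O, so their direction adds little. DSP differed by -9.62 ± 0.49 (adjusted p = 8.31e-05), and with none of 3 controls above background the prostate lines were at least 310.5-fold higher. JUP differed by -4.76 ± 0.73 (adjusted p = 0.00536), DSC2 by -4.72 ± 0.70 (adjusted p = 0.00476), PKP1 by -4.04 ± 0.88 (adjusted p = 0.0182), PKP3 by -3.18 ± 0.49 (adjusted p = 0.00541), DSC3 by -2.92 ± 0.34 (adjusted p = 0.00191) and PKP2 by -1.90 ± 0.57 (adjusted p = 0.0487). The PKP1 value averages PC3 at 1.63 with DU145 at -4.53, where neither control was above background, so only the difference from PC3 was measured. The miR-27b control of 786O, at -3.29 on this probe, read higher than both DU145 controls. On the overlapping probe that control read -6.28, not above background, and the DU145 controls -4.77 and -4.33, also not above it. For DSC3, read in 3 of 4 prostate channels, the bound was at least 1.89-fold. DSC2 was above background in 1 of 3 controls of 786O, so the size of its difference rests mostly on background readings. DSG2, at 0.09 ± 0.24 (adjusted p = 0.785), did not pass the test. The median over the members was -3.18 and over all names -0.04.

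The PKP1 and PKP2 calls of 786O were the weaker ones. PKP1 was lost without any 1 prostate control or either CXCL10 control (adjusted p = 0.0516 to 0.0663), and PKP2 without any 1 prostate control (adjusted p = 0.113 to 0.13) or the 12 h CXCL10 control (adjusted p = 0.085). The CXCL10 controls of 786O correlated at 0.928 and 0.94 with the miR-27b control of the same line and at 0.985 with each other. Without both of them, an alternative chosen after seeing the data, 7 members were called, with DSC2 at -2.95 in place of -4.72.

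Partners of the desmosome also differed in 786O, where 32.1% of all names were called in either direction. Names not above background in 786O entered the test only through a prostate line. The filter favoured a lower reading in 786O for these, so their direction adds little. Of 8 adherens junction genes 3 were lower and 2 higher, where the prostate lines were at least 325.5-fold higher in CDH1 and at least 392.5-fold higher in CDH3 (P-cadherin), neither of them above background in 786O. CTNNA1 differed by 5.30, with PC3 not above background and DU145 close to 786O (a difference of -0.07). Of 9 tested epithelial transcription factors 7 were lower and none higher, with KLF5 at -3.40. OVOL2, OVOL1 and GRHL3 were not above background in 786O, and the prostate lines were at least 91.8-fold, 5.91-fold and 4.43-fold higher, with OVOL1 read in PC3 and not in DU145. Of 6 tested other desmosome and envelope genes 4 were lower, PPL at -3.16, PNN at -2.25, LMO7 at -1.25 and EVPL at -0.65. All 6 mesenchymal markers were higher, with VIM at 3.26 and ZEB2 at least 6.51-fold higher. The PC3 controls of this design read lower for VIM and ZEB1, and higher for CDH1, DSP and JUP, than those of the first. On the first design VIM read 7.65 in 786O (1 control), 6.04 to 6.77 in PC3, and 6.03 and 7.25 in DU145. ZEB1 read 1.36 in 786O there, 0.39 to 1.13 in PC3, and -1.16 and 0.58 in DU145. CDH2 (N-cadherin) and FN1, not above background in DU145, differed by 1.29 and 2.18 from PC3. The part of these markers in the desmosome values was not tested. Of 5 tested keratins 3 were lower, KRT18 at -1.69, and KRT6A and KRT14, not above background in 786O, at least 16.73-fold and 10.85-fold.

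ZEB and SNAI factors bind the letters CACCTG, read CAGGTG on the other strand. In the 250 bases before the start of the 10 member genes (RefSeq, GRCh38.p14), 5 promoters held these letters on either strand, as did 17.5% of 35116 promoters. DSC3, PKP1, PKP2 and PKP3, which were also called lower in 786O, held none. DSG1, not called there, held a match that is not shown, as is a further match of DSG2. The matches are shown for 3 genes that were lower in 786O and for DSG2, which was not. Each line has 1 match in capitals, in a window of 60 bases.
DSP, chr6:7541466-7541525, + strand: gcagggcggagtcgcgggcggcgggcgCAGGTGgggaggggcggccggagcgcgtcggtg
DSP, chr6:7541559-7541618, + strand: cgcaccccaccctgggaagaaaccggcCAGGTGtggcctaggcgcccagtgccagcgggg
JUP, chr17:41785998-41786057, - strand: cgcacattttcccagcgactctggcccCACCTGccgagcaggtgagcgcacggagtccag
DSC2, chr18:31102545-31102604, - strand: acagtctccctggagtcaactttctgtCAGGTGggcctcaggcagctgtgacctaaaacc
DSG2, chr18:31498034-31498093, + strand: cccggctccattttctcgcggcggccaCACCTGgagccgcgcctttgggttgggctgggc
The JUP window holds a further match in lower case. A match of letters is no evidence of binding, and it occurred in genes with and without a difference.

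The treatments were compared with their controls on log2 ratios of treated over control. With 1 array for each line and treatment, the lines of a treatment stood in as replicates where there were several, and the ratios of a single array have no replicate check. A member was also counted by size, where its log2 ratio was past 0.5 the same way on every array of the treatment. Errors of single arrays are the technical errors given by the scanner software.

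miR-145 gave the 1 call among members by the test. DSP was higher on all 3 arrays, at 1.37 ± 0.24 in PC3, 0.66 ± 0.21 in DU145 and 0.71 ± 0.21 in LNCap. The second DSP probe gave 1.97, 0.78 and 0.92. The mean of 0.91 ± 0.19 (SE, adjusted p = 0.026) made DSP 1 of 7 members tested that rose, where 6.65% of all names were called by the test and 5.55% were past 0.5 on all 3 arrays, DSP among the latter as the 1 member. Treated DSP levels of 3.52 in PC3 and 3.08 in DU145 lay above all controls of those lines on that design, which reached 2.13 and 2.59. The call was lost without PC3 (mean 0.68, adjusted p = 0.196) or without LNCap (mean 1.01, adjusted p = 0.0629), and with the 3 arrays fitted alone (adjusted p = 0.133).
DSP probe A_33_P3402565: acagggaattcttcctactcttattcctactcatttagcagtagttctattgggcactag

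Other members moved less evenly with miR-145. DSG2 was at -0.46 in PC3, -0.44 in DU145 and -0.42 in LNCap, a mean of -0.44 ± 0.12 (SE, adjusted p = 0.0588) with very little spread between lines. DSC3 was at -1.06, -1.53 and -0.36 (adjusted p = 0.214), its treated channel in DU145 being not above background. JUP was at 1.19 in PC3 and 0.62 in LNCap and at -0.05 in DU145 (adjusted p = 0.226). In the same arrays KRT14 rose, with log2 ratios from 2.43 to 5.46, and KLF4, an epithelial transcription factor, rose with ratios from 1.62 to 4.91. KRT14 read -5.25 in the PC3 control and was not well above background there, so the size of its PC3 ratio rests on a background reading.

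Genistein, an isoflavone of soy, gave no call by limma among 8 members tested, of which 2 had an unadjusted p under 0.05, where 9.69% of all names were called. By size JUP was the 1 member past 0.5 in both lines, where 15.2% of all names were. JUP was at -0.81 ± 0.22 in PC3 and -1.40 ± 0.24 in DU145, a mean of -1.11 ± 0.33 (SE, adjusted p = 0.0688) that became -0.49 under median centring without background correction. Its treated levels, 0.62 in PC3 and 1.41 in DU145, lay inside the range of the control levels of those lines given above. DSC2 was at -1.94 ± 0.28 in PC3 and -0.38 ± 0.21 in DU145 (mean -1.16 ± 0.34, adjusted p = 0.0644), and DSC3 at -1.35 in PC3 and -0.24 in DU145. PKP2 went the other way in DU145, at 0.72 against -0.12 in PC3.

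**Figure D3:**
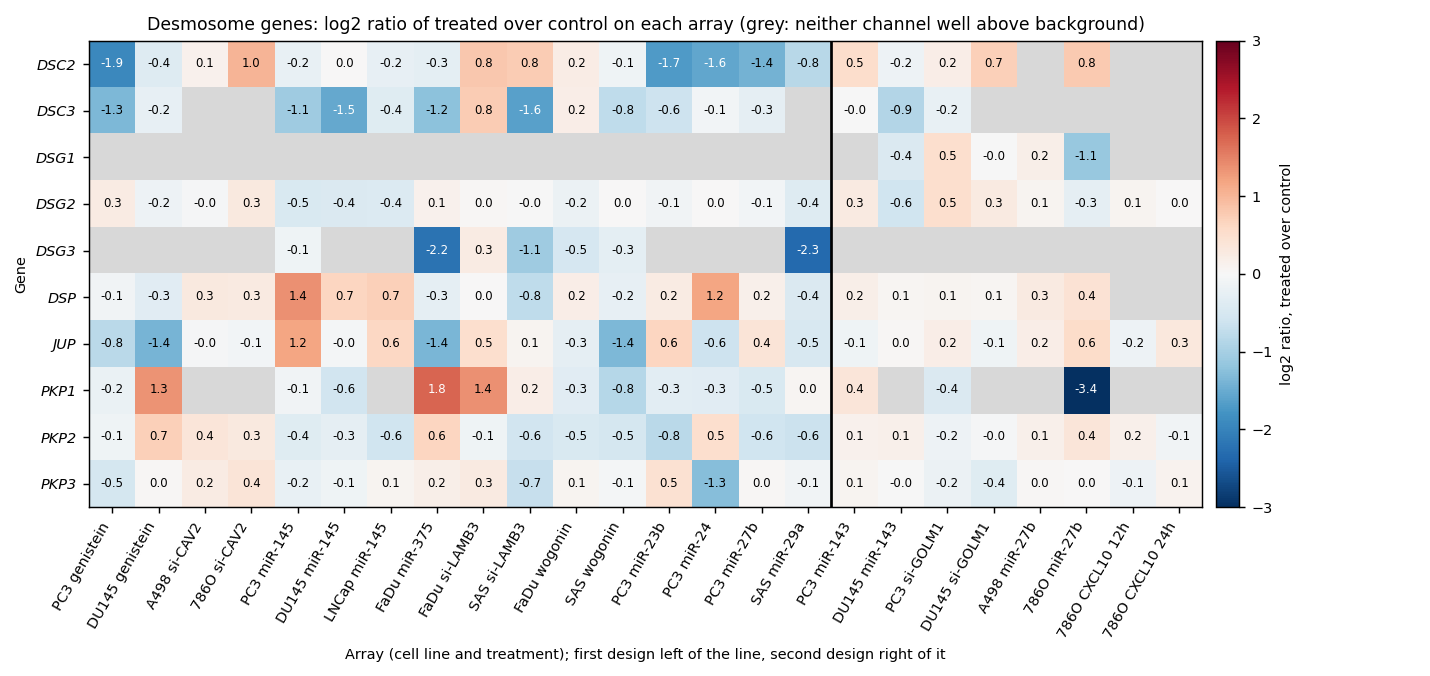
Log2 ratio of treated over control for each desmosome gene (rows) on each of the 24 arrays (columns), with blue for lower, red for higher and grey where neither channel was well above background. DSP was positive on all 3 miR-145 arrays, DSC2 lay between -1.94 and -1.43 on 4 PC3 arrays, and DSG2 stayed between -0.59 and 0.51 throughout.

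Knock-down of LAMB3, a chain of the laminin that anchors hemidesmosomes, gave no call by limma among 9 members tested, 1 of which had an unadjusted p under 0.05, where 7.76% of all names were called. DSC2 was at 0.81 ± 0.22 in FaDu and 0.77 ± 0.23 in SAS and was the 1 member past 0.5 in both, where 14.8% of all names were. Its mean was 0.79 ± 0.33 (SE, adjusted p = 0.184), or 0.50 with normexp and loess, and its treated levels of -0.89 in FaDu and -1.73 in SAS lay above all 3 controls of each line. DSC3 and DSG3, cadherins of squamous cells, had ratios of opposite sign by line, with treated levels inside the range of the controls of each line. In SAS that range rested on the miR-29a control, which stood apart, at -6.24 for DSC3 and -2.30 for DSG3. The treated SAS levels, -4.04 and -1.01, lay below the other SAS controls. DSC3 was at 0.75 in FaDu and -1.63 in SAS, and DSG3 at 0.26 and -1.07. DSP was at 0.02 in FaDu and -0.76 in SAS, PKP3 at 0.27 and -0.70, and PKP1 at 1.37 and 0.21.

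Wogonin, a plant flavone, gave no call by limma among 9 members tested, 2 with an unadjusted p under 0.05, where 3.53% of all names were called, and no member past 0.5 in both lines, where 12% of all names were. JUP was at -1.35 ± 0.24 in SAS and -0.27 ± 0.21 in FaDu, with treated levels of 2.64 and 3.55 that lay below all controls of each line. PKP2 was at -0.54 in SAS and -0.46 in FaDu (mean -0.50 ± 0.20, adjusted p = 0.201), also below all controls of both lines.

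Single arrays of the squamous lines gave the 2 lowest desmoglein values of the series. With miR-375 in FaDu, DSG3 was at -2.22 ± 0.29, JUP at -1.36 ± 0.24 and DSC3 at -1.23, while PKP1 was at 1.76 on its brighter probe and 1.58 on the other, and PKP2 at 0.63. With normexp and loess PKP1 was at 0.67, and under median centring without background correction JUP was at -0.69 and PKP2 at 1.21. These were 5 of 9 members measured, 3 lower and 2 higher, where 49.5% of all names were past 0.5. DSP at -0.27 and DSC2 at -0.29 did not reach that size. All 6 keratins were past 0.5 downward on that array, among them KRT6A at -3.36, KRT14 at -2.36, KRT19 at -1.68 and KRT8 at -1.36. CDH1 was at -1.95.

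With miR-29a in SAS, DSG3 was at -2.33 ± 0.35, DSC2 at -0.84 and PKP2 at -0.64. They were 3 of 8 members measured, all lower, where 29.7% of all names were past 0.5. With normexp and loess DSG3 was at -0.88 and DSC2 at -0.38. PKP2 turned to 0.14 when mean signals were centred on the median without background correction. The control of this array was the one that stood apart above, with DSG3 already at -2.30. The treated level of -4.62 lay below it and the other SAS controls.

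The control channels of the PC3 arrays of miR-23b, miR-24 and miR-27b were averaged as 1 control, and if they are 1 RNA, which the labels do not say, the ratios are not independent of each other. DSC2 was at -1.69 ± 0.26, -1.56 ± 0.26 and -1.43 ± 0.25 in that order. Those became -1.13, -1.04 and -0.94 with normexp and loess, and -0.89, -0.66 and -0.59 under median centring without background correction. Its treated levels, -2.72, -2.56 and -2.45, lay inside the range of the PC3 controls, of which the miR-145 control read -2.80. miR-23b had 4 of 8 members past 0.5, 3 lower and 1 higher (PKP2 at -0.80, DSC3 at -0.61 and JUP at 0.65), where 32.4% of all names were. Under median centring without background correction PKP2 was at -0.06, DSC3 at -0.05 and JUP at 1.41. miR-27b had 2 of 8, both lower, where 36% of all names were, the second being PKP2 at -0.60, which turned to 0.22 under median centring without background correction.

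miR-24 in PC3 had 4 of 8 members past 0.5, 3 lower and 1 higher, where 51.5% of all names were. DSP was at 1.18 ± 0.23 on the brighter probe and 1.72 on the other, with a treated level of 3.16 above all PC3 controls of the design. PKP3 was at -1.27, the lowest value of that gene on any array, with a treated level of 2.41 below all PC3 controls of the design. Median centring without background correction gave DSP 2.04 and PKP3 -0.36. JUP was at -0.61 and turned to 0.23 under median centring without background correction. On the same array PPL was at -1.93, CTNND1 (p120-catenin) at -2.60 and OVOL2 at 3.76.

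**Figure D4:**
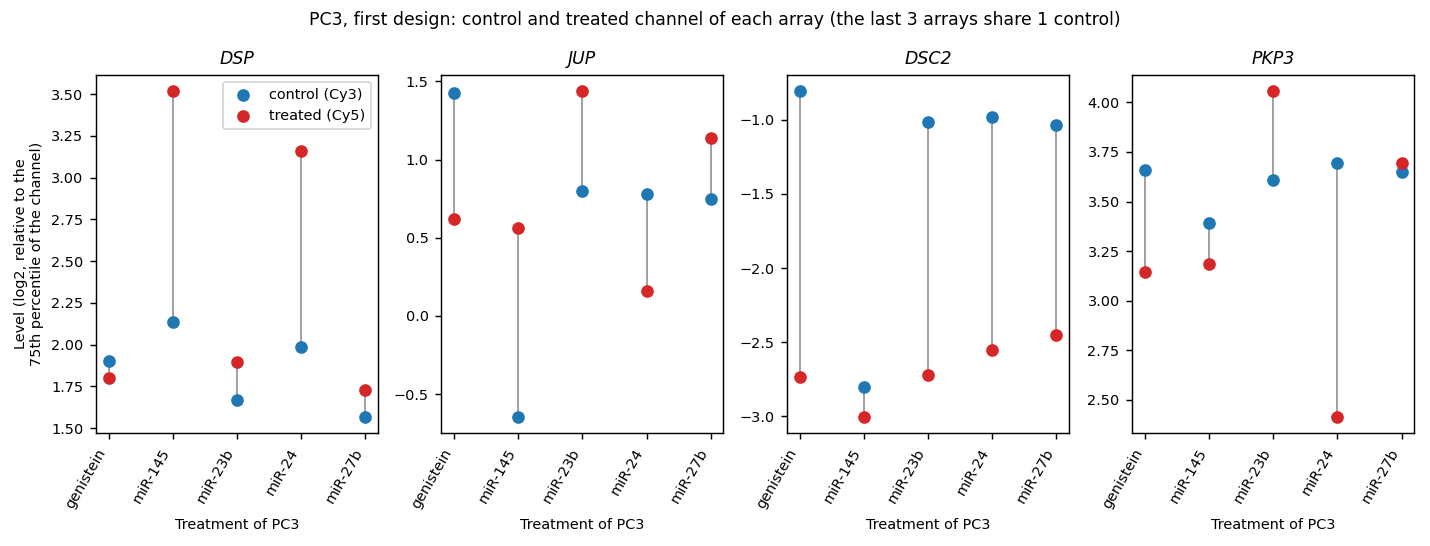
Control (Cy3) and treated (Cy5) level of DSP, JUP, DSC2 and PKP3 on the 5 PC3 arrays of the first design, in log2 units relative to the 75th percentile of the channel, joined by a line for each array. Treated DSP was at 3.52 with miR-145 and 3.16 with miR-24, above every control, whereas treated DSC2 stayed within the range of the controls on the miR-23b, miR-24 and miR-27b arrays.

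The treatments of the renal lines and of the second design gave few calls. With CAV2 knocked down no member of 6 tested was called by limma and none had an unadjusted p under 0.05, where 0.13% of all names were called, and none was past 0.5 in both lines, where 3.57% were. DSC2 was at 1.03 ± 0.83 in 786O, where it was well above background in the treated channel only. With miR-27b in 786O and A498 none of 6 was called, 3 with an unadjusted p under 0.05, where 0.0901% of all names were called, and none was past 0.5 in both, where 3.5% were. DSP was at 0.43 and 0.28 (mean 0.35 ± 0.08 SE, adjusted p = 0.158), and JUP at 0.56 and 0.19. The DSP value of 786O was read in the treated channel only. In 786O DSG1, read in both channels, was at -1.14 ± 0.34, and DSC2, also read in both, at 0.78 ± 0.35. PKP1 was at -3.37 in 786O on the probe A_23_P23296, read in the control channel only, a bound of at least 3.26-fold lower, whereas the overlapping probe, not above background in either channel, was at -0.54.

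miR-143 in PC3 and DU145 gave no call by limma among 7 members, none with an unadjusted p under 0.05, where 0.00509% of all names were called, and none past 0.5 in both, where 2.91% were. DSG2 was at -0.59 in DU145 and 0.27 in PC3. DSC3 was at -0.89 in DU145, where it was read in the control channel only. With GOLM1 knocked down none of 7 was called by limma, 1 with an unadjusted p under 0.05, where 0.142% of all names were called, and none was past 0.5 in both, where 2.6% were. That 1 was PKP3, at -0.18 in PC3 and -0.36 in DU145 (mean -0.27 ± 0.08, adjusted p = 0.187). DSC2 was at 0.19 in PC3 and 0.71 in DU145.

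CXCL10 left none of 4 measured members past 0.5 at 12 h, where 8.77% of all names were, and none of 4 at 24 h, where 10.5% were. The 4 were DSG2, JUP, PKP2 and PKP3, and their log2 ratios lay between -0.15 and 0.31. DSC2 was listed at 1.16 and 1.49 on these arrays but was not above background in either channel, so that no fold is given.

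Over the 24 arrays the members were counted past 0.5 on different sets of measured arrays, some of which may share a control. The share of all names past 0.5 on every array of a treatment ran from 2.6% with si-GOLM1, where both lines had to pass, to 51.5% with miR-24, a single array. The counts below are of single arrays, so these shares are not their background. Differences between the counts of members were therefore not tested. DSG2 was past 0.5 upward on 1 array and downward on 1 of the 24 where it was measured, and PKP3 upward on none and downward on 3. JUP was past 0.5 upward on 5 and downward on 5 of 24, and DSC2 upward on 6 and downward on 5 of 21. DSC3 was past 0.5 upward on 1 and downward on 8 of 16, and DSG3 downward on 4 of 7. PKP1 was past 0.5 upward on 3 and downward on 3 of 16, and PKP2 upward on 2 and downward on 6 of 24. DSG1 was past 0.5 downward on 1 of 5 and upward on none, and DSP upward on 4 and downward on 1 of 22.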

How the data were processed

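The authors deposited Agilent Feature Extraction 10.7.3.1 scanner output for each array, with intensity values per channel, corrected by that software for background and dye, and a log10 ratio of Cy5 over Cy3, whose deposited error is the technical error of 1 array. The authors' series matrix, also log10, held the same ratios. Ratios were converted to log2. Control spots and outlier spots were left out, spots of a probe averaged, and a probe counted as measured where at least 0.5 of its spots in a channel were well above background. Each gene name was represented by its brightest probe. Treatments required a measured channel on every array, and line contrasts a measured control in all controls of at least 1 line. A name measured on only 1 side of a line contrast thus entered through that side, which favours a call towards it. Both were tested with limma 3.58.1 (R 4.3.3, lmFit and eBayes, two-sided, Benjamini-Hochberg over all names, limit 0.05), with a coefficient per treatment or line and all arrays of a design sharing the spread, and checked on simulated data. A group with no measured channel gave a bound, the mean level of the brighter group over the mean, in the dim group, of the higher of each array's lowest measured signal and the probe's own. The number of arrays limits the precision. The members and lists were chosen with earlier results of these data known. The named genes are all members, and list genes past 1.0 on every array of a treatment or called in the contrast, at most 4 per list. Alternatives covered background correction, normalization, filters, probe choice, blocks and left-out arrays.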

Additional observations from a re-analysis of the deposited data

Results flagged for a closer look

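One result was picked out because lines given the same treatment moved past 0.5 in opposite directions. DSC3 with LAMB3 knocked down was at 0.75 in FaDu and -1.63 in SAS, a gap of 2.38 on the log2 scale. The second DSC3 probe read 0.04 in FaDu, where its control channel was not above background, and -1.88 in SAS. On the brighter probe the treated levels lay inside the range of the controls of each line. In SAS the treated level of -4.04 was inside only through the miR-29a control, at -6.24, and lay below the other SAS controls. With 1 array for each line the difference was not tested.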

How the results depend on the processing

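Treated and control RNA of a line are paired within each array by the log ratio. Beyond that, no paired analysis was possible because the labels give no replicate numbers and each condition was hybridised once. Of 250 counts of members recomputed, 213 stayed within 1.5 times and 37 moved. Median centring without background correction shifted the median of all probes by up to 0.39 and normexp with loess by up to 0.12, on the log2 scale. Under median centring limma called 2 members for genistein, 2 for miR-145, 7 for si-LAMB3, 3 for wogonin, 1 for miR-143, 4 for si-GOLM1 and 2 for miR-27b in renal lines, and by size 0 for genistein, 1 for si-CAV2, 3 for si-LAMB3, 3 for wogonin, 1 for si-GOLM1 and 5 for miR-27b in PC3. It reversed JUP with miR-24 (0.23), PKP2 with miR-27b in PC3 (0.22) and PKP2 with miR-29a (0.14). With normexp and loess limma called 2 for genistein and 1 for si-GOLM1, and by size 0 passed for si-LAMB3 and 1 for miR-27b in PC3. With a limit of 1.0, 0 passed for genistein, miR-145 and si-LAMB3, and 1 for each of miR-23b, miR-27b in PC3 and miR-29a. Subtracting the mean of other treatments gave 2 for si-CAV2. Without a filter on dim probes, or with the 3 arrays alone, limma called 0 for miR-145. Each control channel as its own sample gave 4 calls between PC3 and DU145 on the first design and 4 for LNCap, as did quantile normalization for LNCap. Leaving out 1 array or control gave 0 to 1 for genistein (1 without DU145), 0 to 1 for miR-145 (0 without PC3 or LNCap), 0 to 1 for si-LAMB3 (1 without FaDu) and 1 to 1 for PC3 against DU145 on the second design. The adjusted p of DSP with miR-145 ranged from 0.00362 to 0.196. PKP2 in 786O was lost with quantile normalization (adjusted p = 0.0705) or without the filter (0.0732), and DSC3 between FaDu and SAS without the filter (0.0675). The causes were not tested. The slide could not be fitted as a block on the second design, which has 1 slide. Where a member was not above background in a line, as DSP in 786O on the second design, the size of its difference is set by background readings and only the bound is measured.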
